A study of Homo sapiens with 6 samples.

Results

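The genes described here are the partners and rivals of MYC in the MAX and MLX network: MNT, MXD1, MXD3, MXD4, MXI1, MGA, MLX, MLXIP and MLXIPL. They were taken by gene symbol as a set of related factors, with earlier results of these data already known, and all 9 were found among the 57820 gene rows of each library. The cells were U266, a human multiple myeloma line grown in RPMI-1640 with serum. Of the 6 RNA libraries, 3 were control cells and 3 were cells carrying a lentivirus in which the EF1A promoter, a strong constitutive promoter, drives C-MYC. The labels do not say whether the controls carried a vector, so an effect of transduction cannot be told apart from one of MYC. They also do not say whether the libraries came from separate cultures, so p-values measure only the spread between these samples.

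MYC, MAX, the MXD proteins, MNT and MGA share a basic helix-loop-helix leucine zipper, with which each pairs with a partner and binds the E-box CACGTG. MYC with MAX activates genes, whereas MXD proteins, MXI1 and MNT compete for MAX and bring the SIN3 and histone deacetylase corepressor to the same sites, and MGA with MAX belongs to a Polycomb complex called PRC1.6. MLX is a relative of MAX that pairs with the glucose-sensing activators MLXIP (MondoA) and MLXIPL (ChREBP), and also with MXD1, MXD4 and MNT.

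The promoters show which of these genes carry the network's own binding letters at their start. Across the 250 bases upstream of each RefSeq start site (GRCh38.p14; all 9 genes matched, with 13 windows), CACGTG was present in 3 windows, those of MXD4, MNT and MLX. The word reads the same on both strands, was the only motif searched, and was in 2228 of 35116 windows of this length (6.34%). That share covers windows of any GC content, whereas the MXD4, MNT and MLX windows had 70.4, 78 and 71.2% GC. No share was computed for windows of like GC. The 3 windows are printed because they hold the motif, in capitals, and read 5′ to 3′ on the gene's own strand with the start site just after the last base. The MXD4 window is chr4:2262110-2262359 on the minus strand, the MNT window is chr17:2401061-2401310 on the minus strand and the MLX window is chr17:42566850-42567099 on the plus strand. The motif begins 238 bases before the start site in MXD4, 193 in MNT and 50 in MLX.
MXD4: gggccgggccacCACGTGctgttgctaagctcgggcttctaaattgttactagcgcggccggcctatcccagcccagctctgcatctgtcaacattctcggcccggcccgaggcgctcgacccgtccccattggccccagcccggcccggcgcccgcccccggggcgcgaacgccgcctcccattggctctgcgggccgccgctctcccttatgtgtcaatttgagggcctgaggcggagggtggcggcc
MNT: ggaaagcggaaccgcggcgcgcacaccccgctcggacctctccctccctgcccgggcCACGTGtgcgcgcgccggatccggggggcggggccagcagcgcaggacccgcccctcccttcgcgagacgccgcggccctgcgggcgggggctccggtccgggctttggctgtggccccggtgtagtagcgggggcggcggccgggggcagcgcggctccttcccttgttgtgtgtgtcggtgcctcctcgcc
MLX: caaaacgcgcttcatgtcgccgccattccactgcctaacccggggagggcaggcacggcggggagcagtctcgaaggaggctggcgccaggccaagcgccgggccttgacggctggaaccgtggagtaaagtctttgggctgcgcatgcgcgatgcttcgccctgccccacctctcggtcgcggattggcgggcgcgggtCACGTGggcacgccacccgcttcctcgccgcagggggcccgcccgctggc
The letters were not found in the windows of MXD1, MXD3, MXI1, MGA, MLXIP and MLXIPL. The motif is a description of these windows, and no binding was measured. Of the 3 genes with it, MXD4 and MNT were lower and MLX higher in MYC cells, as given below with their values.

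The libraries held between 27139978 and 158667309 counts, a 5.85-fold range. All 10 plasma cell markers examined, SDC1 and IRF4 among them, were detected at a mean above 1 CPM (counts scaled to library size) in both groups. Their summed level was 6359 to 6877 CPM in control and 2725 to 3539 CPM in MYC libraries, where 6 were lower and 1 was higher. IGHE weighed most in the control sum, with a mean of 2931 CPM, against 707 CPM in MYC cells. With an offset for GC content, described below, 8 of the markers were called lower and 2 higher. Summed B cell markers ran from 23.1 to 25.1 CPM in control and 18.6 to 22.4 CPM in MYC libraries, with 1 of 3 tested higher and 1 lower, and MS4A1, which encodes CD20, averaged 0.0103 CPM in control and 0.0381 CPM in MYC cells. T and NK cell markers summed to 8.82 to 11.5 CPM in control and 13.0 to 15.4 CPM in MYC libraries (3 of 5 tested higher, 2 lower), myeloid markers to 0.702 to 0.815 and 0.454 to 0.970 CPM (1 of 2 higher, 1 lower), stromal markers to 9.81 to 11.95 and 9.56 to 10.7 CPM (2 of 4 higher, 1 lower), and epithelial markers to 3.83 to 4.63 and 6.64 to 7.70 CPM (1 of 2 higher). Their part in the results was not tested. MYC itself, the check on the labels, was at 3.91, 4.16 and 4.51 CPM in the controls and at 105.4, 110.3 and 92.1 CPM in the MYC libraries, a log2 fold change of 4.60 ± 0.10 (SE; adjusted p = 9.71e-08, edgeR).

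Counts were compared with edgeR's quasi-likelihood test over all 17679 genes that passed its filter on low counts, and a gene was called when its p, adjusted by Benjamini-Hochberg over all of them, was under 0.05. By this test 60.8% of all genes were called, 28.8% higher and 32.1% lower in MYC cells. Of the 9 network genes, 8 passed the filter, with at least 2.63 CPM in every library: MXI1, MGA and MLX were called higher, and MNT, MXD3, MXD4 and MLXIP lower. A called change was common among all genes, so this count is not read as a result about the network, and the description below rests on the direction and size of each change. In these bulk libraries, fewer cells of a kind and less RNA per cell cannot be told apart.

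GC content of the transcripts moved with the fold change across the transcriptome and has to be read beside every member. The median log2 fold change of tested genes was 0.25 at 38 to 42% GC and fell to -1.75 at 66 to 70% GC. MXD3, MNT and MXD4, the 3 members with the largest falls, had the highest GC of the tested members (64.6, 63.0 and 61.9%), and MLXIP came next (57.8%). MLX had 54.3%, MXI1 49.3%, MXD1 47.5% and MGA 42.6%. A second fit therefore carried an offset for the trend with GC in each library. It called 58.3% of all genes, 26.7% higher and 31.6% lower, and among the members it called MXI1 and MLX higher and MNT, MXD1, MXD3, MXD4 and MLXIP lower. Whether the trend with GC arose in the cells or in library preparation was not tested, so fold changes with and without the offset are given side by side.

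**Figure D1:**
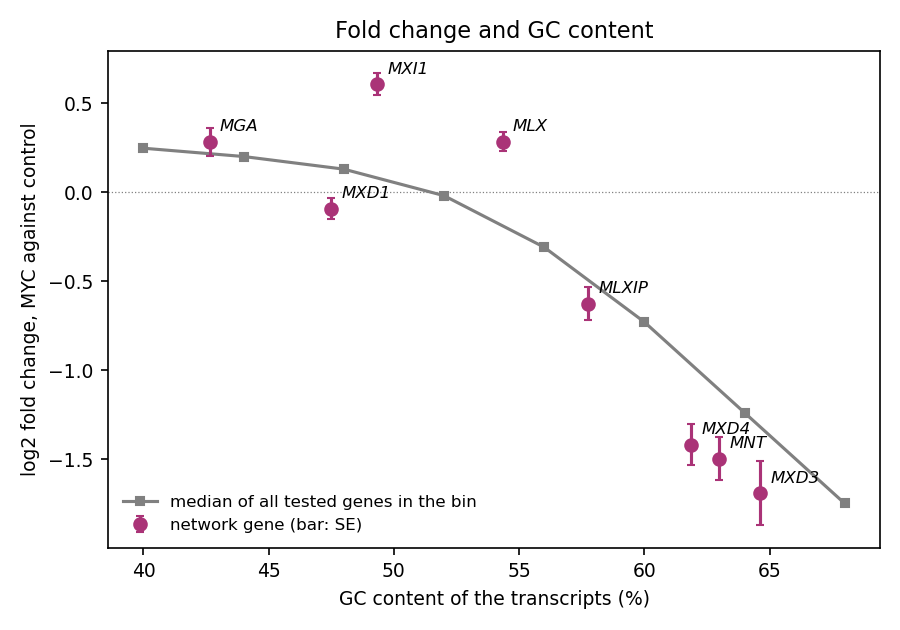
Log2 fold change of MYC over control against mean GC content of a gene's transcripts in percent. Circles are the 8 tested network genes with SE, and grey squares are medians of all tested genes in bins of 4 percentage points. MXI1 and MLX lie above the line of medians. MXD1 lies below it, as do MNT, MXD3 and MXD4 at 61.9 to 64.6% GC.

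Among the repressors with a SIN3-binding domain, MNT, the broadly expressed antagonist of MYC, fell clearly. It was measured at 24.7, 27.4 and 25.5 CPM in the controls and at 10.5, 9.72 and 7.41 CPM in the MYC libraries. Every MYC library was below every control, and the lowest was MYC 3. The mean went from 25.9 ± 1.38 to 9.21 ± 1.61 CPM (SD, n = 3 each), 2.82-fold lower, with a log2 fold change of -1.50 ± 0.12 (SE; adjusted p = 2.41e-05, edgeR). Under the GC offset the fall was 1.30-fold (-0.38 ± 0.05, adjusted p = 0.000174, edgeR). An antisense transcript, AC006435.1, overlaps 12.2% of the exonic bases of MNT in a GENCODE annotation, and reads from the 2 strands cannot be told apart here; its own mean fell short of a call, with 1.27 CPM in control and 0.916 CPM in MYC cells.

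MXD3, a member of the MXD family known from proliferating cells, showed the largest fall of the 8 tested members without the GC offset. Its level was 9.67, 11.6 and 10.0 CPM in the controls and 4.54, 2.94 and 2.63 CPM in the MYC libraries. The groups did not overlap, and MYC 1 was the highest of the MYC libraries. The fall was 3.23-fold, from 10.4 ± 1.01 to 3.37 ± 1.03 CPM (log2 fold change -1.69 ± 0.18, adjusted p = 8.24e-05, edgeR). The offset left a fall of 1.30-fold (-0.37 ± 0.11, adjusted p = 0.0178, edgeR), no longer the largest beside MXD4 (-0.45) and MNT (-0.38). That second call was lost without control 2 (-0.34; adjusted p = 0.059, edgeR) and without MYC 2 (-0.24; adjusted p = 0.102, edgeR). Exons of MXD3 overlap 2 neighbours: RAB24 covers 18.0% of its exonic bases and PRELID1, on the other strand, 22.5%. RAB24 was also lower in MYC cells, at 23.4 and 13.5 CPM (log2 fold change -0.80), and PRELID1 was at 239.2 and 268.3 CPM (0.17, not called), so reads of MXD3 are uncertain where the exons are shared.

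MXD4, a repressor known to be raised in differentiating cells, was also lower. It was at 25.7, 26.6 and 25.2 CPM in the controls and 11.01, 10.2 and 7.89 CPM in the MYC libraries. Here too the groups were apart and MYC 3 was the lowest. The fall was 2.67-fold (25.8 ± 0.723 to 9.71 ± 1.62 CPM, log2 fold change -1.42 ± 0.12, adjusted p = 2.36e-05, edgeR), and 1.37-fold with the GC offset (-0.45 ± 0.06, adjusted p = 0.000106, edgeR).

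MXD1, the founding MXD repressor and another gene linked to differentiation, was nearly level on the count scale. Control libraries had 26.7, 25.1 and 25.7 CPM and MYC libraries 24.1, 24.5 and 24.2 CPM. The 2 groups did not overlap but were close, and the difference was not called (log2 fold change -0.09 ± 0.06, adjusted p = 0.214, edgeR). Groups were apart in all 8 tested members, and in 67.1% of all tested genes. With the GC offset MXD1 was called lower, 1.22-fold (-0.29 ± 0.05, adjusted p = 0.000472, edgeR), and it was also called lower when transcript length per library entered as effective length (-0.35) or when the deposited TPM, an abundance scaled for length and depth, were tested on the log2(TPM + 1) scale (-0.33).

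MXI1, also called MXD2, moved the other way and was the only one of the 4 MXD genes called higher. It was at 32.8, 32.1 and 34.3 CPM in the controls and 49.1, 49.8 and 52.6 CPM in the MYC libraries. Even the lowest MYC library was well above the highest control. MXI1 rose 1.53-fold (33.1 ± 1.11 to 50.5 ± 1.84 CPM, log2 fold change 0.61 ± 0.06, adjusted p = 5.55e-05, edgeR), and 1.39-fold with the GC offset (0.47 ± 0.05, adjusted p = 3.36e-05, edgeR).

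MGA, a giant protein with a T-box as well as the zipper domain and the scaffold of PRC1.6, was the most heavily counted of the 9 genes. It had 101.2, 88.7 and 101.3 CPM in the controls and 107.7, 120.7 and 126.1 CPM in the MYC libraries. The groups did not overlap, although MYC 1 came close to controls 1 and 3. The rise was 1.22-fold (97.1 ± 7.26 to 118.2 ± 9.47 CPM, log2 fold change 0.29 ± 0.08, adjusted p = 0.0129, edgeR), and without control 2 (0.21) or MYC 2 (0.27) it was not called. Under the GC offset the value was 0.02 ± 0.05 (adjusted p = 0.798, edgeR), which is not called either.

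**Figure D2:**
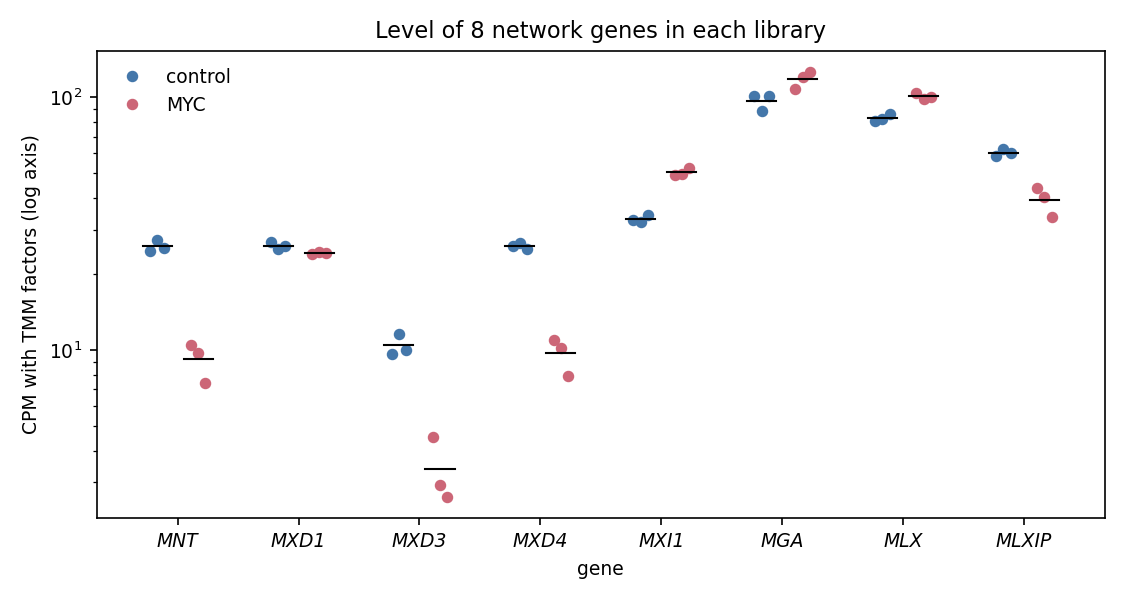
Level of the 8 tested network genes in each library, in CPM with TMM library-size factors on a log axis; dots are libraries and lines are group means (n = 3). MNT, MXD3 and MXD4 are lower in the MYC libraries, MXI1 is higher, and MXD1 lies between 24.1 and 26.7 CPM throughout.

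On the MLX side, MLX itself rose and its partner MLXIP fell. MLX, the shared dimer partner, was at 80.5, 81.9 and 85.9 CPM in the controls and 104.0, 98.2 and 100.6 CPM in the MYC libraries. The groups were apart by more than the spread within either. MLX rose 1.22-fold (82.7 ± 2.81 to 100.9 ± 2.91 CPM, log2 fold change 0.29 ± 0.05, adjusted p = 0.00184, edgeR), and 1.35-fold with the GC offset (0.43 ± 0.05, adjusted p = 7.71e-05, edgeR). PSMC3IP, on the opposite strand, overlaps 18.1% of its exonic bases and fell (47.6 to 33.5 CPM, log2 fold change -0.51), so the shared stretch counts for both genes without a strand.

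MLXIP, the activator that responds to glucose phosphates, was at 58.5, 62.6 and 60.3 CPM in the controls and 43.8, 40.4 and 33.7 CPM in the MYC libraries. All MYC libraries were lower, MYC 3 most of all. The fall was 1.54-fold (60.4 ± 2.02 to 39.3 ± 5.12 CPM, log2 fold change -0.62 ± 0.09, adjusted p = 0.000503, edgeR), and 1.12-fold with the GC offset (-0.17 ± 0.04, adjusted p = 0.00719, edgeR). MLXIPL, known mainly from liver and fat, was close to undetected: control libraries had 1, 1 and 4 expected counts, and MYC libraries 0, 1 and 0. The limit that a count of 0 allows, 3 counts, corresponds to 0.0189 to 0.111 CPM over these libraries. MLXIPL did not pass the filter on low counts, so it was not tested with the other members and no fold is given.

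**Figure D3:**
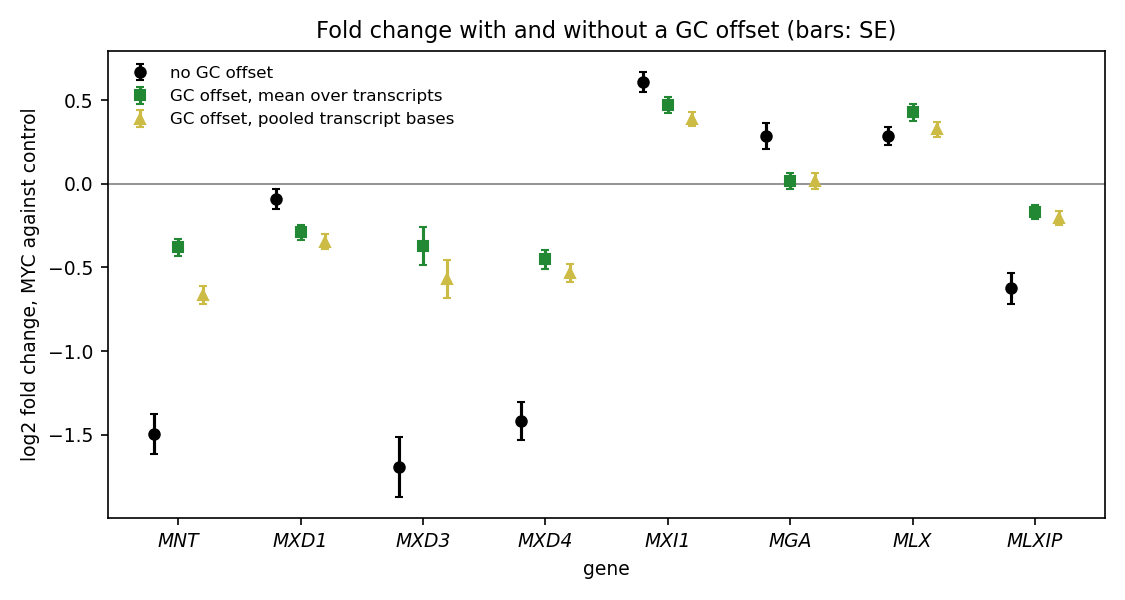
Log2 fold change of MYC over control (SE bars) for the 8 tested genes without a GC offset (black circles), with an offset on the mean GC of a gene's transcripts (green squares), and with one on the pooled bases of its transcripts (yellow triangles). MNT goes from -1.50 to -0.38 and -0.67, and MGA from 0.29 to 0.02 under both offsets, while MXI1 is between 0.39 and 0.61.

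Levels of different genes can be set side by side on the deposited TPM, which is scaled per length. In the controls the order was MLX (51.2 ± 2.75 TPM), MXI1 (21.5 ± 1.89), MGA (12.7 ± 1.26), MLXIP (11.4 ± 0.593), MXD4 (9.92 ± 0.312), MXD3 (8.96 ± 0.340), MXD1 (8.62 ± 0.390), MNT (7.92 ± 0.0929) and MLXIPL (0.04 ± 0.0173). The ranges of MGA and MLXIP overlapped, as did those of MXD3 and MXD1. In the MYC libraries it was MLX (60.9 ± 2.69 TPM), MXI1 (30.8 ± 1.94), MGA (15.3 ± 1.64), MLXIP (7.73 ± 0.998), MXD1 (6.67 ± 0.577), MXD4 (4.35 ± 0.730), MNT (2.70 ± 0.243) and MXD3 (2.37 ± 0.631), with MLXIPL listed at 0 in all 3. There the ranges of MLXIP and MXD1 overlapped, and those of MNT and MXD3. MLX, MXI1 and MGA led in both groups, while MXD3 went from the sixth place to the eighth and MXD1 from the seventh to the fifth. The deposited TPM carry no GC offset. With the offset the fall of MXD3 was 1.30-fold and that of MXD1 1.22-fold, and no order was made on that scale.

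Summed over the 6 antagonists that pair with MAX (MNT, MXD1, MXD3, MXD4, MXI1 and MGA), the level changed little while its make-up shifted toward MXI1. The sum was 68.3, 68.5 and 72.1 TPM in the controls and 61.5, 60.3 and 64.6 TPM in the MYC libraries. The MYC libraries were lower and did not overlap the controls on this scale (69.7 ± 2.15 to 62.1 ± 2.26 TPM, a log2 ratio of -0.16); on CPM the ratio was -0.02. MXI1 made up 30.9 ± 1.74% of the sum in control and 49.5 ± 1.47% in MYC cells, and MGA 18.2 ± 1.59% and 24.6 ± 2.08%. The share of MNT went from 11.4 ± 0.219% to 4.36 ± 0.536%, that of MXD3 from 12.9 ± 0.815% to 3.82 ± 1.07%, that of MXD4 from 14.3 ± 0.809% to 7.02 ± 1.34% and that of MXD1 from 12.4 ± 0.713% to 10.7 ± 0.881%. None of these shares overlapped between groups, and in CPM the groups did not overlap in 67.1% of all tested genes. As shares of the same sum, they do not move independently of each other. The sums are descriptions of RNA, with no test, and carry the GC trend of their members. No shares were computed with the GC offset, under which MGA was not called (log2 fold change 0.02).

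MYC went from far below this sum to about its size. Its TPM per TPM of antagonists was 0.0391, 0.0382 and 0.0406 in control libraries, against 1.05, 1.15 and 0.969 with the MYC vector. The controls, however, already held much MYCL, a MYC relative known to be abundant in this line, at 257.6, 246.2 and 240.4 TPM, against 165.3, 162.7 and 170.6 TPM in the MYC libraries. MYC, MYCL and MYCN together therefore came to 251.1 ± 8.58 TPM in control and 231.9 ± 1.62 TPM in MYC cells. Per antagonist that is 3.61 ± 0.219 and 3.74 ± 0.120, and the groups overlapped. In the MYC libraries the TPM of MYC was scaled by a mean transcript length of 2198, 2199 and 2177 bases. The length of the RNA from the vector is not known here, so sums and ratios that hold MYC TPM are uncertain there. MYCL was called lower (535 to 365 CPM; log2 fold change -0.55 ± 0.06, adjusted p = 7.57e-05, edgeR), but the GC offset turned it the other way (0.24 ± 0.07, adjusted p = 0.0175, edgeR) and it was not called with the pooled-bases offset (-0.04). MYCN was low, with 0.568 CPM in control libraries and 0.383 CPM in the others, and its call (-0.62, adjusted p = 0.0339, edgeR) was lost with the GC offset (-0.24).

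MAX, the partner that all of these antagonists share, was not called: 30.9, 34.2 and 32.3 CPM in the controls and 35.5, 34.1 and 29.5 CPM in the MYC libraries, with overlapping groups (log2 fold change 0.02 ± 0.08, adjusted p = 0.83, edgeR). Antagonists per MAX, in TPM, were 1.91 ± 0.253 in control and 2.04 ± 0.191 in MYC cells, again overlapping. The MLX, MLXIP and MLXIPL sum was 62.7 ± 2.16 TPM in control and 68.7 ± 2.32 TPM in MYC cells, of which MLX was 81.7 ± 1.58% and 88.7 ± 1.54%. On CPM the log2 ratio of that sum was -0.03, against 0.13 on TPM, since MLXIP has the longer transcripts and weighs more in counts.

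**Figure D4:**
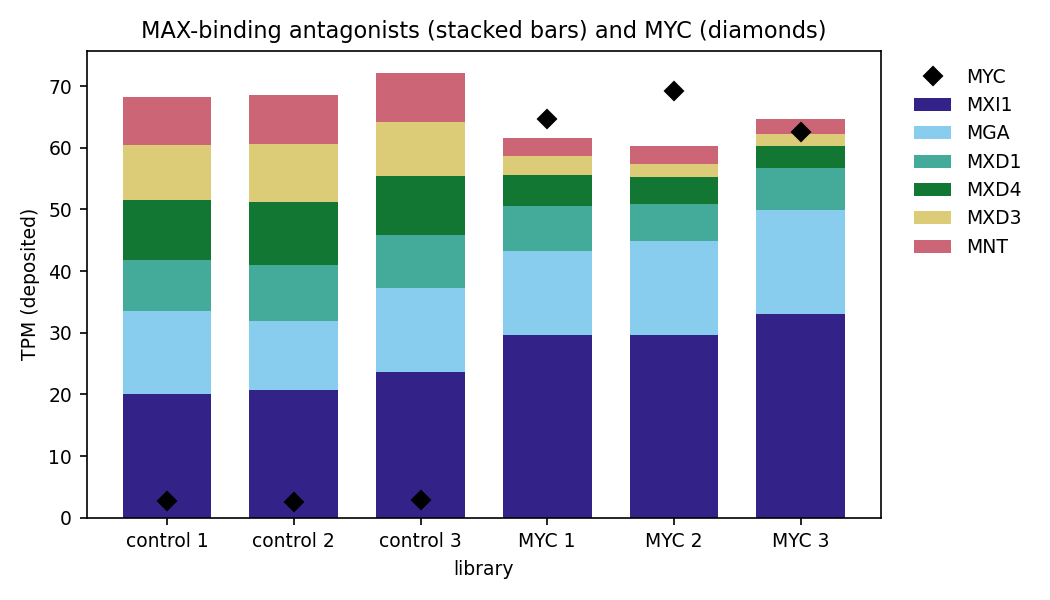
Deposited TPM in each library: stacked bars are the 6 antagonists that pair with MAX, diamonds are MYC. The bars reach 68.3 to 72.1 TPM in the controls and 60.3 to 64.6 TPM in the MYC libraries, and MYC goes from 2.62 to 2.93 TPM in the controls to 62.6 to 69.2 TPM in the MYC libraries.

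The deposited tables also give each gene's mean transcript length, weighted by the estimated abundance of its transcripts, which moves when the mix of transcripts moves. For MXD3 it was 1665, 1756 and 1735 bases in the controls and 1996, 1969 and 2036 bases in the MYC libraries. For MXD4 it was 3709, 3464 and 3632 bases in the controls and 2854, 3138 and 3129 bases in the MYC libraries. So the estimated mix of MXD3 was longer in MYC cells by 281.8 bases while that of MXD4 fell by 561.5 bases, and in both the groups did not overlap. Reads of MXD3 are uncertain where its exons are shared with RAB24 and PRELID1, and so is its estimated length. Both differences have p = 0.1 in a two-sided exact permutation test, the smallest that 3 against 3 allows, and an adjusted p of 0.4 over the 8 members tested. Groups without overlap in this length were found in 25.3% of all tested genes, against 2 of these 8 members.

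The other members overlapped between groups in transcript length. MXD1 had means of 4126 ± 418 bases in control and 4831 ± 513 bases in MYC cells (exact permutation p = 0.2), MLXIP 7114 ± 362 and 6628 ± 341 bases (p = 0.3), and MNT 4458 ± 103 and 4493 ± 216 bases (p = 0.8). MXI1 (2217 ± 150 and 2294 ± 55.1 bases), MGA (10160 ± 208 and 9968 ± 205 bases) and MLX (2311 ± 15.3 and 2310 ± 7.33 bases) differed by less than the SD of their controls. A longer estimate lowers a level per length, which is how MXD1 came to be called lower in the fits that use length.

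**Figure D5:**
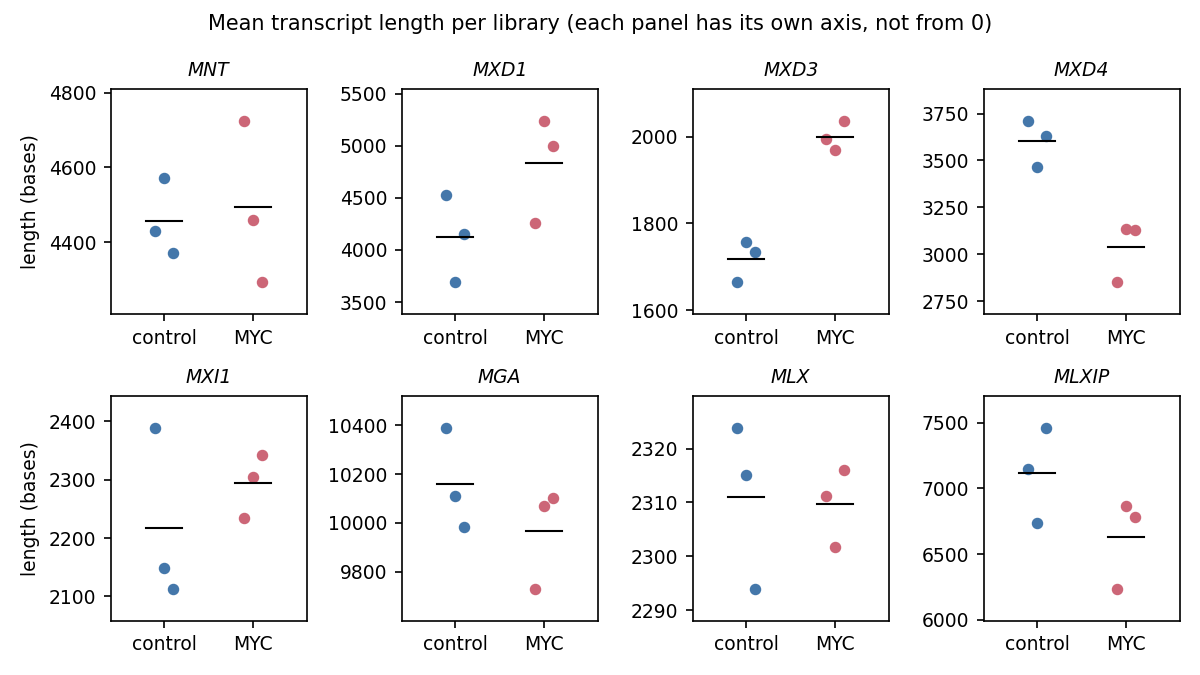
Mean transcript length in bases per library for the 8 tested genes, with group means as lines; each panel has its own axis, which does not start at 0. The 3 MYC libraries are all longer than the controls for MXD3 (1719 to 2000 bases on average) and all shorter for MXD4 (3602 to 3040 bases).

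The pathway around these proteins was examined through lists of genes, each set beside a median log2 fold change of -0.02 over all tested genes (-0.04 with the GC offset). Of all tested genes 28.8% were called higher and 32.1% lower, or 26.7% and 31.6% with the offset. Counts of called genes in the lists are descriptions to be read beside these shares. Of the 18 genes of the SIN3 and histone deacetylase corepressor, through which MNT, the MXD proteins and MXI1 act, 6 were called higher and 4 lower (median 0.09), and 5 and 5 with the offset. The deacetylases HDAC1 (109.4 to 159.1 CPM, log2 fold change 0.54) and HDAC2 (80.8 to 116.2 CPM, 0.53) rose, and stayed called higher with the GC offset (0.47 and 0.27). The scaffold SIN3B fell (43.1 to 26.7 CPM, -0.69; -0.13 with the offset, and not called with the pooled-bases offset, -0.03, or with the offset and replicate block, -0.12), as did SAP30L (35.0 to 24.4 CPM, -0.51; -0.67 with the offset). SIN3A, the more heavily counted SIN3 scaffold, named after its values were seen, was not called (264.2 to 257.4 CPM, -0.04, adjusted p = 0.557, edgeR; -0.07 with the offset).

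Of 14 genes of PRC1.6, the complex built on MGA, 6 were called higher and 4 lower (median 0.05), and 7 and 4 with the offset. TFDP1 and TFDP2, the partners of E2F6 in DNA binding, rose (133.1 to 216.3 CPM, 0.70, and 20.6 to 31.6 CPM, 0.62), and CBX3, the heterochromatin protein HP1 gamma, rose from 312.2 to 542.2 CPM (0.80). These 3 were also called higher with the offset (0.88, 0.38 and 0.51). The histone methyltransferase EHMT1 was lower in counts (110.6 to 68.1 CPM, -0.70; -0.16 with the offset), but was not called once effective length entered (-0.07).

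Germline genes are known targets that PRC1.6 keeps silent in somatic cells. Of the 16 listed, 10 were tested, and 4 were called higher and 4 lower (median 0.04), or 3 and 4 with the offset, so they did not move one way. TDRKH, a piRNA factor named here after its values were seen, held most of the list's counts (46.0 to 60.1 CPM, log2 fold change 0.38; 0.22 with the offset, called higher in both), and the 4 genes named next were low. STK31 (0.407 to 1.67 CPM, log2 fold change 2.06) and TDRD9, a helicase of the piRNA pathway (0.287 to 1.38 CPM, 2.19), rose. MAEL, another piRNA gene (1.81 to 0.320 CPM, -2.45), and STAG3, a meiotic cohesin subunit (3.58 to 1.62 CPM, -1.14), fell. Each of the 4 was called the same way with the offset.

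For the MLX branch, 20 of 21 listed target genes of MLXIP and MLXIPL were matched and 18 tested: 8 were called higher and 7 lower (median 0.03), or 9 and 6 with the offset. TXNIP, the thioredoxin-binding protein whose transcription is the usual readout of MLXIP, had 64.3 ± 1.22 CPM in control libraries, against 70.9 ± 3.83 CPM with the MYC vector, and was not called (0.14 ± 0.06, adjusted p = 0.0656, edgeR; -0.08 with the offset). ARRDC4, its usual companion, was near 0.0025 CPM in control and 0.0021 CPM in MYC cells, under the limit of detection, and did not pass the filter. Genes of sugar and fat metabolism moved both ways. Those named by smallest adjusted p were called higher: HK2, the hexokinase that begins glycolysis (9.25 to 50.3 CPM, 2.44), ELOVL6, a fatty acid elongase (78.9 to 158.8 CPM, 1.01), and PFKFB3, which sets the rate of glycolysis through fructose bisphosphate (5.04 to 10.6 CPM, 1.07). These 3 were called higher with the offset too (2.42, 0.77 and 1.69). Named after their values were seen, KHK, the fructose kinase (28.8 to 12.4 CPM, -1.23), GPD1, a glycerol phosphate dehydrogenase (2.31 to 1.21 CPM, -1.002), MID1IP1, a regulator of fatty acid synthesis (86.9 to 31.1 CPM, -1.49), and FGF21, a metabolic hormone (2.83 to 0.559 CPM, -2.43), were called lower. The offset kept them lower (-0.66, -0.73, -0.97 and -2.02). FASN, the fatty acid synthase, was called lower without the offset (-0.98) and higher with it (0.43). Several of these genes have other activators, MYC among them, and the share of each was not tested.

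The 14-3-3 proteins hold phosphorylated MLXIPL and MLXIP in the cytoplasm. Of 7 genes, 6 were called higher and 1 lower (median 0.34), beside 28.8% and 32.1% of all tested genes. With the offset 4 were called higher (median 0.14), beside 26.7% of all tested genes. YWHAQ rose from 334.0 to 508.6 CPM (0.61), YWHAZ from 553.6 to 750.1 CPM (0.44) and YWHAH from 124.4 to 159.1 CPM (0.35), and each was called with the offset (0.39, 0.23 and 0.28). SFN, the epithelial member, was low and lower in MYC cells (1.20 to 0.494 CPM, -1.24), a call that the offset ended (-0.15).

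Of 9 other factors with the same zipper domain, most of which also read E-boxes, 7 were called lower (median -0.66). Over all tested genes the share called lower was 32.1%. With the GC offset 4 of these factors were called lower and 2 higher (median -0.18), beside 31.6% and 26.7% of all tested genes. SREBF1, a master of lipid synthesis, fell from 26.99 to 10.7 CPM (-1.35; -0.26 with the offset) and TFE3, a lysosomal regulator, from 105.8 to 67.2 CPM (-0.66; -0.23); with the pooled-bases offset neither was called (-0.15 and -0.03). TFEB, its relative, fell from 13.9 to 6.07 CPM (-1.22), and the offset ended that call (-0.14). USF2, an E-box binder found in most tissues, was lower in counts (116.1 to 77.1 CPM, -0.59) and higher with the offset (0.41), so its direction depends on that choice.

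Genes with a profile most like that of MXI1 and of MXD3 were sought among 10263 genes with a mean of at least 5 CPM. These were the members with the largest rise and the largest fall without the GC offset. The measure was the root mean square difference of log2 CPM over the 6 libraries after centring on the control mean. For MXI1 they were RUVBL1, an ATPase of chromatin remodelling complexes (difference 0.0214; 91.3 to 140.6 CPM), EHHADH, a peroxisomal enzyme (0.0230; 7.15 to 10.9 CPM), and COCH (0.0258; 13.1 to 19.8 CPM). For MXD3 they were GNB2, a G protein subunit (0.0891; 80.6 to 26.6 CPM), CPSF1, a factor of mRNA 3′ end formation (0.0935; 67.0 to 21.9 CPM), and RFNG, a glycosyltransferase that acts on Notch (0.0942; 13.98 to 4.396 CPM). With the GC offset the genes like MXD3 had log2 fold changes of -0.56, -0.54 and -0.42, beside -0.37 for MXD3, and those like MXI1 had 0.64, 0.36 and 0.38, beside 0.47.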

How the data were processed

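Poly-A RNA of 3 control and 3 MYC libraries was prepared with an unstranded kit and sequenced on a HiSeq instrument, per the labels' protocols. The submitters' processing notes name cutadapt, TopHat2 and the build GRCh37. Which versions and which annotation were used is not given in the sources. The deposited RSEM tables hold, per the file headers, an expected count, TPM, length and effective length for each gene. RSEM shares reads between similar genes by estimation, and TPM is scaled for effective length and depth.

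Expected counts were rounded and tested with edgeR 4.0.16 (filterByExpr, TMM factors, quasi-likelihood F test, group as the only term, Benjamini-Hochberg adjustment over 17679 genes). CPM uses TMM-scaled library sizes. Of the 57820 gene identifiers, 51996 matched a symbol (98.3% of counts), and 715 further rows were named through their transcripts. GC content was the mean over a gene's listed transcripts (17202 tested genes), and the GC offset was a loess fit (span 0.4) of each library's deviation in log2 CPM. Alternatives were RLE factors, total counts, DESeq2 1.42.0, limma-voom 3.58.1, log2(TPM + 1), log2(TPM + 0.1), no filter, a mean CPM of at least 5, effective length, the replicate block, and leaving out each library. An offset on pooled transcript bases, and the GC offset without each library, were added after seeing the data.

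On simulated counts for the same 17679 genes 60.7% of the changes of 1.5-fold were recovered, 80% of those of 2-fold and 89.9% of those of 4-fold, with 14 false calls among 170. Only 56, 75 and 69 genes were changed at these sizes, and no trend with GC was simulated. In the data 60.8% of genes were called, so these rates need not hold there. No libraries were duplicates: the smallest chi-square per degree of freedom within a group was 8.46. The members and lists were chosen with earlier results of these data known. All members, MYC, MYCL, MYCN, MAX, TXNIP and ARRDC4 are named, with up to 4 called genes of smallest adjusted p per list and the 3 genes most like MXI1 and MXD3. One gene that this rule names is not reported here. Counts of 0 allow up to 3 counts, for counting error only.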

Additional observations from a re-analysis of the deposited data

How the results depend on the processing

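MNT, MXD4, MXI1, MLX and MLXIP kept their direction and their call in all 25 alternatives. MXD1, not called at -0.09, was called lower with log2(TPM + 1) (-0.33), log2(TPM + 0.1) (-0.37), effective length (-0.35), the GC offset (-0.29), its pooled form (-0.35), the GC offset with the replicate block (-0.29), and the GC offset without control 1, 2 and 3 (-0.28, -0.32 and -0.31) and MYC 1, 2 and 3 (-0.30, -0.29 and -0.28). MXD3 lost its call with the GC offset without control 2 (-0.34) or MYC 2 (-0.24). The rise of MGA was not called with log2(TPM + 1) (0.25), log2(TPM + 0.1) (0.26), the GC offset (0.016), its pooled form (0.015) or the GC offset with the replicate block (0.017), and ranged from 0.21 to 0.35 without single libraries. With the GC offset MGA was 0.0095, -0.034 and 0.038 without control 1, 2 and 3, and 0.038, -0.0021 and 0.0043 without MYC 1, 2 and 3. The cause was not tested.

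On TMM-scaled CPM the log2 ratio was -0.0197 for the summed antagonists, -0.0311 for the MLX branch and 4.63 for MYC per antagonist, since counts weigh long transcripts more. With a mean CPM of at least 5, 3694 genes were called lower, against 5671, since fewer genes were tested. MYCL turned to 0.24 with the GC offset, also with the block. MAX, not called, was -0.26 with log2(TPM + 1), -0.26 with log2(TPM + 0.1), -0.24 with effective length, -0.00065 with the pooled offset and -0.034 to 0.10 without single libraries. TXNIP was -0.077 with the GC offset, -0.076 with its pooled form and -0.076 with the offset and block, and was called higher with RLE factors (0.16), DESeq2 (0.16) and without MYC 1 (0.17). USF2 was 0.41 with the GC offset, 0.35 with its pooled form and 0.41 with the offset and block.

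The 6 corepressor genes called higher were 3 with both TPM scales, no filter, the pooled offset, or without control 2, control 3 or MYC 2. The 7 other zipper factors called lower were 4 with effective length or the GC offset and 3 with its pooled form. Of the 14-3-3 genes, 3 were called higher with the pooled offset, and SFN was no longer called with any GC offset. Of the MYC proteins and MAX, 2 were called lower, and 1 in 11 alternatives, where MYCN was not called or not tested; with the 3 GC offset fits it was 0 by edgeR, and 0 also at an unadjusted p under 0.05. With a mean CPM of at least 5, 1 germline gene was tested.

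Deviations of same-numbered libraries of the groups correlated only weakly (-0.047, 0.078 and 0.11), beside -0.16 to 0.10 for libraries of different numbers. Not every library correlated best with its own number. Correlations this weak cannot settle whether libraries were paired, and the labels state no pairing. With the replicate block 4649 genes were called higher and 5380 lower, against 5085 and 5671, and the counts of 3 members higher and 4 lower were the same. MLXIPL and ARRDC4 did not pass the filter on low counts. In the fit with no filter neither was called (adjusted p = 0.309 and 0.974, edgeR).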
